A study of Rattus norvegicus with 6 samples.

Results

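The COX and ATP synthase stretch of the mitochondrial chromosome was examined in peak lists of SYNCRIP crosslinking and immunoprecipitation from rat neurons. Its members are the peaks on the plus strand of the mitochondrial chromosome that lie wholly between positions 5301 and 9400 (rn6, 1-based), the span that holds the coding genes Co1, Co2, Atp8, Atp6 and Co3. They numbered 30 of 5687 peaks in replicate 1, 25 of 4163 in replicate 2 and 20 of 2733 in replicate 3, or 75 of 12583 over the 3 lists. The bounds are positions alone, so no score entered the choice of members. No rn6 annotation was used here, so peaks are given by position and not assigned to a single gene, a transfer RNA or an untranslated end, and no sequence of the sites is shown.

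The study mapped the RNA contacts of SYNCRIP in cytoplasmic RNA of primary cortical neurons from Sprague-Dawley rat brain, kept for 6 days in vitro. All cultures received 300 mJ/cm2 of UV-C light, which fixes proteins to the RNA they touch. Of the 6 samples, 3 were precipitated with an antibody against hnRNPQ, another name of SYNCRIP, and 3 with an IgG1 isotype antibody as control. Values below come from the 3 SYNCRIP libraries, since the IgG samples were not analysed here. No background of the precipitation can therefore be set beside any value. The study names the replicates as biological, and the labels do not say whether they came from separate litters or preparations. Peak lists hold no expression values, so the neuronal label could not be checked against marker genes. The level of each mitochondrial RNA in these cultures is likewise not known, and a stretch with many peaks cannot be told apart from a stretch of abundant RNA.

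Mitochondrial DNA is transcribed from each strand into a long precursor, which is cut into ribosomal, transfer and messenger RNAs, in most places at the transfer RNAs that lie between them. Co1, Co2 and Co3 encode the catalytic core subunits of cytochrome c oxidase, complex IV of the respiratory chain, which passes electrons to oxygen. Atp8 and Atp6 encode membrane subunits of the ATP synthase, which makes ATP from the proton gradient. Atp8 and Atp6 overlap and share a messenger RNA. These mRNAs are made and translated inside mitochondria. SYNCRIP is an RNA-binding protein of the hnRNP family, known in neurons for its part in the transport and translation of mRNA encoded in the nucleus.

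The scores in the lists are the authors' own whole numbers. Their meaning is not given in the sources used here, so they are compared within a list only, as multiples of the list's lowest score or as percentiles (the share of the list with a lower score, ties counted at their middle). The lowest score was 32, 26 and 20 in replicates 1, 2 and 3. Sequencing depth is unknown, and the list of replicate 3 is less than 0.5 times as long as that of replicate 1, so a peak missing from a list does not show that the site was unbound.

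Peaks covered 800 of the 4100 nt of the stretch in replicate 1, 700 nt in replicate 2 and 440 nt in replicate 3. That was 19.5%, 17.1% and 10.7% of its length, a mean of 15.8% ± 4.5 (SD, n = 3). The density was 7.32, 6.10 and 4.88 peaks per kb. The shortest list thus had the sparsest stretch. As a share of its own list the order was the opposite, with 0.528%, 0.601% and 0.732% of all peaks. The stretch held 35.3%, 30.5% and 28.6% of the plus-strand mitochondrial peaks of the respective lists.

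Most peaks of the stretch were 1 bin of 20 nt wide, 24 of 30, 20 of 25 and 18 of 20. That was 80%, 80% and 90%, close to the 75.5%, 77.0% and 78.4% of the whole lists. The widest were 80, 80 and 40 nt. The scores ran from 32 to 138 in replicate 1 with a median of 47.5, from 29 to 147 in replicate 2 with a median of 43, and from 20 to 109 in replicate 3 with a median of 29. The highest score was 4.31, 5.65 and 5.45 times the lowest of its list. The medians were above those of the whole lists, which were 45, 36 and 27. Peaks under 1.5 times the lowest score of the list numbered 15 of 30, 8 of 25 and 10 of 20. The share of the whole lists under that limit is not given here, so these counts describe the stretch alone. Peaks in the top decile of their list numbered 4 of 30, 3 of 25 and 2 of 20. That is close to the share of about 10% that a decile of a list holds by definition.

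**Figure D1:**
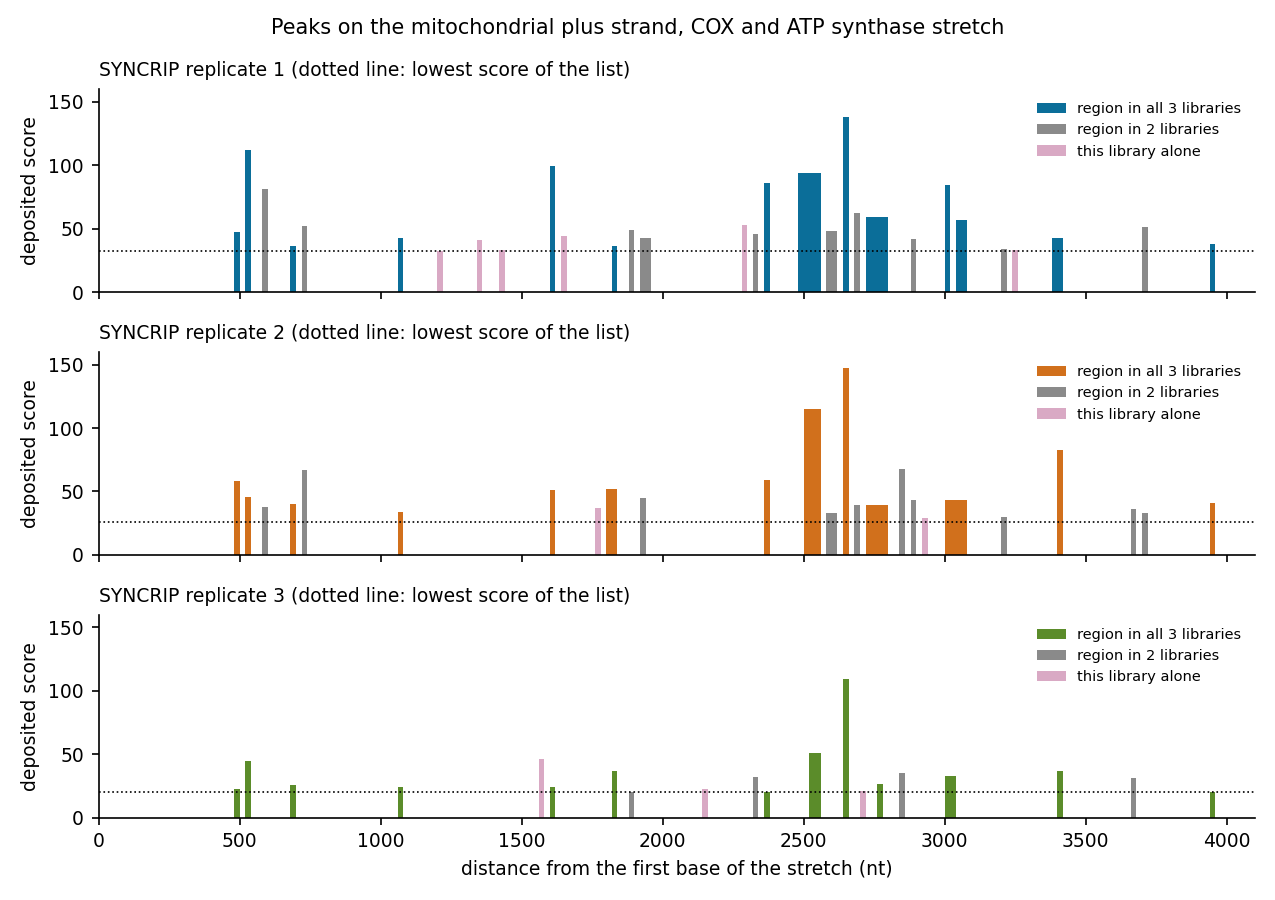
Deposited score (vertical axis, no stated unit) of each peak against its distance in nt from the first base of the stretch, 1 panel per SYNCRIP library, with colour showing how many libraries had a peak in the region. Heights are not comparable between panels. The bar at 2640 nt is the highest in all 3 panels (138, 147 and 109), and the first 480 nt are empty in each.

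The highest site of the stretch was the same bin in all 3 libraries. The region at 7941 to 7960 had a score of 138 in replicate 1, 147 in replicate 2 and 109 in replicate 3. It was 1 bin wide with identical ends in each list. Its percentile was 97.1, 98.9 and 99.0, and it stood at rank 161, 46 and 28 by score in the whole lists.

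The region next in rank lay 80 nt upstream and differed in width between libraries. It covered 7781 to 7860 in replicate 1, 7801 to 7860 in replicate 2 and 7821 to 7860 in replicate 3. All 3 peaks thus ended at the same base and began at 3 different bins. Their scores were 94, 115 and 51, at percentiles of 91.6, 97.6 and 90.2. These were the only core regions of the stretch with a percentile above 90 in every library, where core means that all 3 libraries had a peak there.

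Another pair of sites varied more in rank between libraries. Near the Co1 end, the bin at 5821 to 5840 scored 112, 46 and 45, at percentiles of 94.9, 72.5 and 86.2. Farther downstream, the region at 8301 to 8380 scored 84, 43 and 33 at its highest peak in each library. The percentiles of this region were 88.9, 67.6 and 69.9. There replicate 1 had separate peaks at 8301 to 8320 and 8341 to 8380, replicate 2 had a single peak of 80 nt, and replicate 3 had a peak of 40 nt at 8301 to 8340. With 7781 to 7860 and 7941 to 7960, these were the 4 core regions whose scores reached 1.5 times the list's lowest in every library.

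Other core regions ranked high in 1 or 2 libraries only. The region at 8681 to 8720 scored 43, 83 and 37, at percentiles of 45.0, 94.1 and 77.5. The bin at 6901 to 6920 scored 99, 51 and 24, at percentiles of 92.8, 78.4 and 35.5. The bin at 7661 to 7680 scored 86, 59 and 20, and the last value is the lowest score of the replicate 3 list. These regions were present in all 3 libraries, but their place in the ranking was not the same.

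The region at 8021 to 8100 was among the widest and not among the highest. It scored 59, 39 and 27, and its percentiles were 73.9, 59.8 and 51.1. Replicates 1 and 2 covered the whole 80 nt, and replicate 3 only the bin at 8061 to 8080. The region at 7101 to 7140 scored 36, 52 and 37. Its first bin had a peak in replicate 2 alone, and its second bin in all 3 libraries. The bin at 5781 to 5800 scored 47, 58 and 23. The 3 core bins of lowest mean percentile were 5981 to 6000 with scores of 36, 40 and 26, 6361 to 6380 with 43, 34 and 24, and 9241 to 9260, the last peak of the stretch. Of the 13 core regions, 5 were above the 50th percentile of the list in every library.

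**Figure D2:**
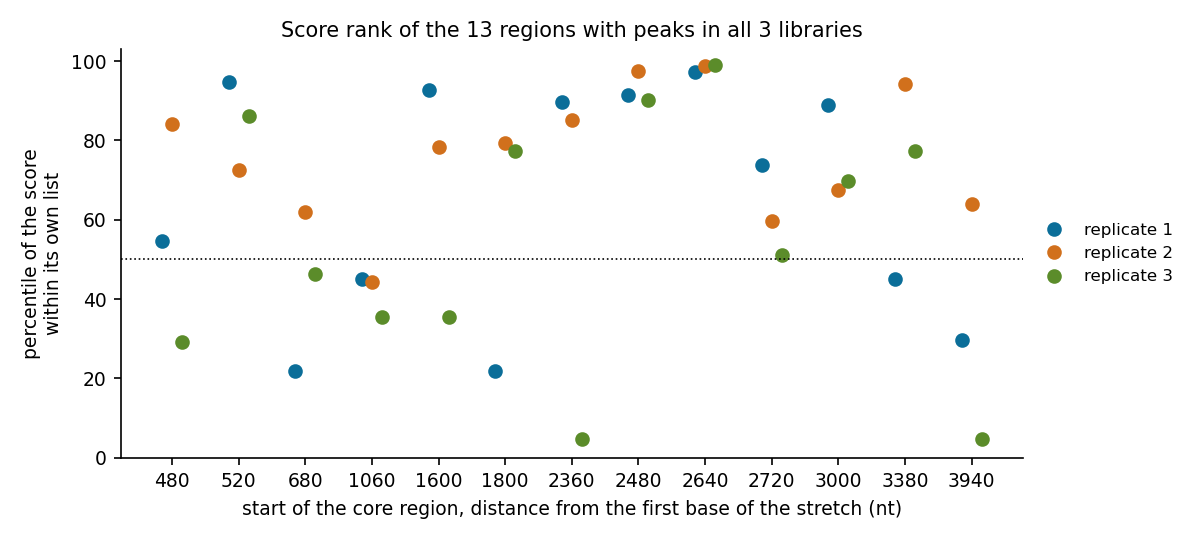
Percentile of the score within its own list (vertical axis) for the 13 core regions, placed in order along the stretch and labelled by distance in nt from its first base, with a point per library and a dotted line at 50. The points of the regions at 2480 and 2640 nt lie together above 90, and those of the region at 2360 nt are spread between 4.70 and 89.6.

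The order of scores over the core regions was shared weakly, and how weakly depended on the score used. Over the 13 core regions, Spearman's rho of the scores was 0.45 between replicates 1 and 2, 0.38 between 1 and 3 and 0.43 between 2 and 3. Pearson's r of log2 scores was 0.50, 0.56 and 0.76. Without the region at 7941 to 7960, rho was 0.30, 0.21 and 0.28 and r was 0.28, 0.32 and 0.53 over 12 regions. All 6 values were thus lower without that region. With the score divided by the number of bins, rho was 0.47, -0.05 and 0.20 over 13 regions, and 0.33, -0.34 and -0.02 without the same region. The sign thus turned for replicates 1 and 3. The regions are neighbours on one RNA span, so these values are descriptions.

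Peaks of the 3 lists merged into 36 regions, which covered 980 nt or 23.9% of the stretch. All 3 libraries had a peak in 13 regions (36.1%), against 24.9% of all regions of the lists and 45.8% of the 72 regions elsewhere on the mitochondrial plus strand. At least 2 libraries had a peak in 25 regions (69.4%), against 48.2% and 65.3%. The share of regions in all 3 libraries in the stretch thus lay between that of the lists as a whole and that of the remaining mitochondrial plus strand. Peaks covered 10.7% to 19.5% of the stretch, and the part of coverage in these shares was not tested.

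Identical ends in all 3 lists were found for 8 of the 13 core regions (61.5%), against 46.7% of the core regions of the whole lists. All 8 were single bins, at 5781, 5821, 5981, 6361, 6901, 7661, 7941 and 9241. Every start and end lies on a grid of 20 nt, so 1-bin peaks that overlap always have identical ends. The 8 identical regions are thus the 8 core regions that are 1 bin wide, and their equal ends follow from that width. Each of these 8 peaks stands on the same line in all 3 lists, so the lists were put in order jointly at some step before deposit. The part of that step in the agreement was not tested. The other 5 core regions were wider than 1 bin.

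By single bins, 14 of the 205 bins of the stretch had a peak in all 3 libraries, 20 in 2, 15 in 1 and 156 in none. Of the 40 bins of replicate 1, 72.5% also had a peak in replicate 2 and 40% in replicate 3. Of the 35 bins of replicate 2, 82.9% were shared with replicate 1 and 48.6% with replicate 3. Of the 22 bins of replicate 3, 72.7% were shared with replicate 1 and 77.3% with replicate 2. Counted by peaks, replicate 1 shared 73.3% with replicate 2 and 50% with replicate 3, against 52.9% and 35.8% of nuclear peaks. Replicate 2 shared 84% with replicate 1 and 60% with replicate 3, against 75.7% and 45.4%. Replicate 3 shared 75% with each of the others, against 81.4% of nuclear peaks with replicate 1 and 72.8% with replicate 2. Sharing by peaks was thus above the nuclear value in 5 of the 6 ordered pairs and below it for replicate 3 with replicate 1, and these differences were not tested one by one. Replicates 1 and 2 had 8 regions in common that replicate 3 lacked, while replicates 1 and 3 alone shared 2 and replicates 2 and 3 alone shared 2.

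The regions without replicate 3 included strong ones. The bin at 6021 to 6040 scored 52 and 67 in replicates 1 and 2, at percentiles of 64.2 and 89.4. The bin at 5881 to 5900 scored 81 and 38, at percentiles of 87.9 and 57.4. Replicate 1 in turn lacked the bin at 8141 to 8160, where replicates 2 and 3 scored 68 and 35, at percentiles of 89.9 and 74.1. These 3 regions were chosen after their values were seen.

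Regions of a single library were 6 in replicate 1, 2 in replicate 2 and 3 in replicate 3. The median percentile of these peaks was 23.5, 38.1 and 29.3, below the 72.6, 78.4 and 51.1 of the peaks in core regions of the same library. Peaks in regions of 2 libraries had medians of 57.7, 58.6 and 66.3. In replicate 3 they thus stood above the core peaks, with 4 such peaks. The highest single-library peak in replicate 3 was an exception to the low scores. It lay at 6861 to 6880 with a score of 46, the 87.1th percentile of its list. The highest in replicate 1 was at 7581 to 7600 with 53 (65.9th percentile) and that in replicate 2 at 7061 to 7080 with 37 (54.4th percentile).

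The bin at 6861 to 6880 also held the only minus-strand peak of the stretch. It belonged to replicate 1 and scored 32, the lowest score of its list. The peak of replicate 3 in the same bin was on the plus strand. Replicates 2 and 3 had no minus-strand peak within the stretch.

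A partner, meaning an overlap of at least 1 bp with a peak of another library on the same strand, was found for 24 of 30 peaks of replicate 1 (80.0%, 95% Wilson interval 62.7 to 90.5), 23 of 25 of replicate 2 (92.0%, 75.0 to 97.8) and 17 of 20 of replicate 3 (85.0%, 64.0 to 94.8). The intervals cover counting error only and treat the peaks as independent, which neighbours on the same RNA span may not be. Over the whole lists 58.5%, 78.4% and 86.1% of peaks had a partner. The share in the stretch was therefore above that of its list in replicates 1 and 2 and not in replicate 3.

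Against nuclear peaks the share with a partner was 21.9 and 13.7 percentage points higher in replicates 1 and 2, and in replicate 3 the difference was -1.08 percentage points. The mean difference of 11.5 ± 11.6 percentage points (SD, n = 3) was no larger than its SD. An exact two-sided sign-flip permutation test over libraries gave p = 0.50 (adjusted p = 1, Benjamini-Hochberg over 2 comparisons). With nuclear peaks weighted to the score quintiles of the stretch, the mean difference was 5.97 ± 9.70 percentage points. With only peaks of at least 1.5 times the lowest score, it turned to -7.43 ± 16.3 percentage points. Other plus-strand mitochondrial peaks had a partner in 85.5%, 80.7% and 88.0% of cases. There the stretch was lower in 2 libraries and higher in 1, by 0.948 ± 9.05 percentage points on average (p = 1, adjusted p = 1, same exact permutation test). That difference turned to -13.9 ± 5.1 percentage points with the same limit on the score. With 3 libraries the smallest p of this test is 0.25, so no comparison could pass a threshold of 0.05.

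**Figure D3:**
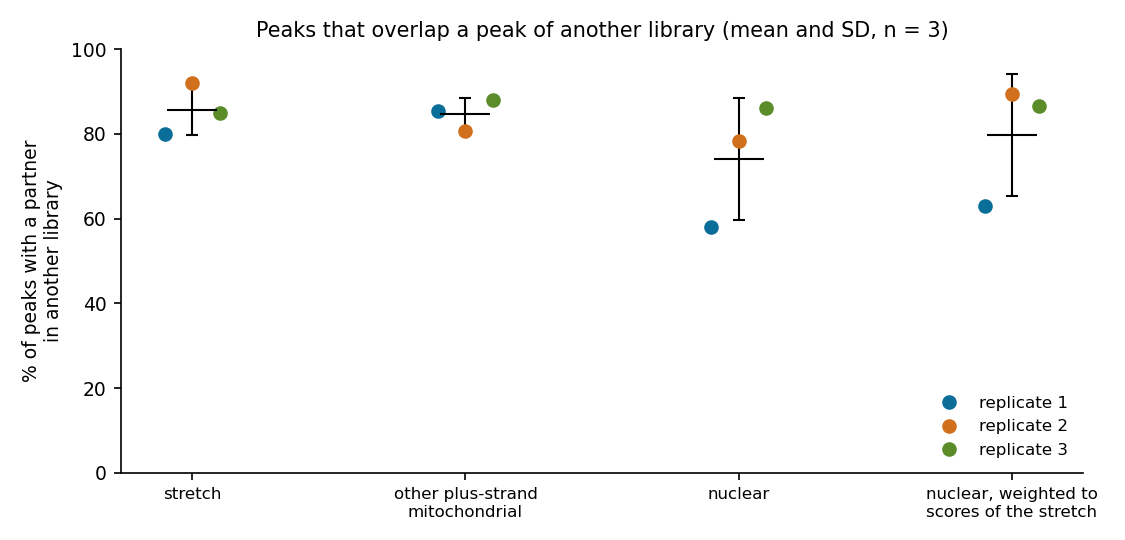
Percentage of peaks that overlap a peak of another library (vertical axis), with a point per library and the mean and SD of the 3 libraries, for the stretch, other plus-strand mitochondrial peaks, nuclear peaks and nuclear peaks weighted to the score quintiles of the stretch. The stretch lies at 80.0%, 92.0% and 85.0%, and the nuclear peaks range from 58.1% to 86.1%.

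Density along the stretch was uneven. In windows of 200 nt, 13 of 21 windows had peak coverage in all 3 libraries and 4 had none in any. The window at 7901 to 8100 was the most covered, with 140, 140 and 60 nt (mean 113 ± 46 nt, SD, n = 3). The window before it, 7701 to 7900, had 100, 80 and 40 nt. The next most covered windows were 7101 to 7300 with 80, 60 and 40 nt and 8301 to 8500 with 60, 80 and 40 nt.

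The densest part ran from 7661 to 8400, bounds that were chosen after the map was seen and are given without a test. Its 740 nt held 9, 10 and 7 peaks, or 30%, 40% and 35% of the peaks of the stretch. Peaks covered 340, 380 and 180 nt of it, a mean of 40.5% ± 14.3 (SD, n = 3). The 2360 nt before it were covered to 10.7% ± 3.2 and the 1000 nt after it to 9.33% ± 3.06. In this part, 5 of the 11 regions were core, among them the pair with the highest ranks. In the part before it 6 of 19 were core, and in the part after it 2 of 6.

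**Figure D4:**
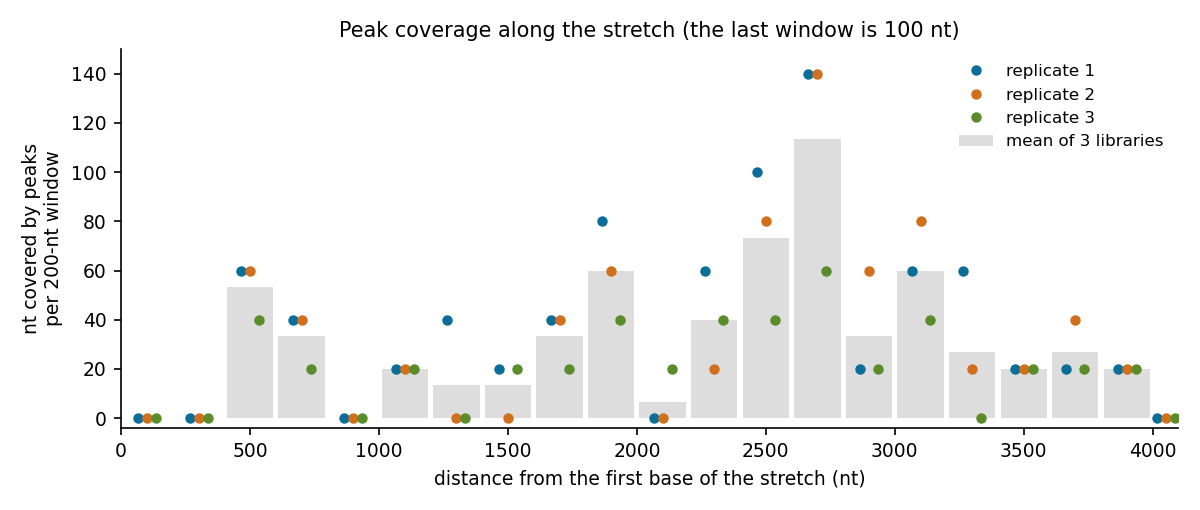
Nucleotides covered by peaks in each 200-nt window (vertical axis) against distance in nt from the first base of the stretch, with points for the 3 libraries and grey bars for their mean. Replicates 1 and 2 reach 140 nt and replicate 3 reaches 60 nt in the window that begins at 2600 nt, and 4 windows are at 0 in all libraries.

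Some gaps were common to all 3 libraries. Peaks covered 10.7% to 19.5% of the stretch, and the part of this coverage in the shared gaps was not tested. The first 480 nt of the stretch, at its Co1 end, had no plus-strand peak in any library, and the first peak inside began at 5781 in all 3. The longest gap between peaks that all libraries shared was 6041 to 6360, of 320 nt. It was followed by 8721 to 8960 with 240 nt, 9021 to 9240 with 220 nt and 7261 to 7440 with 180 nt. In all, 33 gaps between regions had a median of 40 nt, and 12 of them were 100 nt or longer. The longest gap was also 320 nt in replicate 1, and 520 and 480 nt in replicates 2 and 3. That of replicate 2 ran from 6381 to 6900, where replicate 1 had 3 single-library peaks with scores of 32, 41 and 33 and replicate 3 had the peak at 6861 to 6880.

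At the Co3 end, all 3 libraries had their last peak at 9241 to 9260, with scores of 38, 41 and 20. The next plus-strand peak was far downstream, at 12081 to 12100 in replicates 1 and 2 (scores of 50 and 62) and at 13381 to 13400 in replicate 3 (score of 39). On the other side, the last peak before the stretch was at 4841 to 4860 in replicates 1 and 2 (scores of 94 and 61) and at 4881 to 4900 in replicate 3 (score of 20). No peak crossed either bound.

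The stretch was compared with 3 other spans of the same strand. The first, positions 1 to 2660, is where the usual gene order places the ribosomal RNAs, and it ends where the first run of peaks with gaps of at most 200 nt ends. The second, 2661 to 5300, lies between it and the stretch, where the usual gene order places complex I subunits and transfer RNAs. The third, 9401 to 15240, runs to the last plus-strand peak and covers the further complex I subunits and cytochrome b in that order. The end of the first span and that of the third were thus set from the peaks, which raises coverage in the first and leaves the start of the second empty. The comparisons of coverage that follow are therefore descriptions.

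Coverage of the stretch was below that of the ribosomal RNA span and above that of the other 2 spans in each library. Peaks covered 195, 171 and 107 nt per kb of the stretch in replicates 1, 2 and 3. The ribosomal RNA span had 692, 677 and 602 nt per kb, a difference of -499 ± 6 nt per kb (SD, n = 3), lower in 3 of 3 libraries. The span before the stretch had 114, 121 and 83.3 nt per kb, and the stretch was higher by 51.7 ± 28.8 nt per kb in 3 of 3. The span after it had 75.3, 89.0 and 41.1 nt per kb, and the stretch was higher by 89.2 ± 27.6 nt per kb in 3 of 3.

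Widths in the stretch were close to those of both neighbouring spans and below those of the ribosomal RNA span. Their mean width was 26.7, 28 and 22 nt, against 68.1, 72.0 and 57.1 nt in the ribosomal RNA span, 27.3, 26.7 and 20.0 nt in the span before the stretch and 25.9, 26.0 and 21.8 nt in the span after it.

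The score rank of the stretch depended on what it was set against. The median percentile of its peaks was 55.7, 67.6 and 58.0. For the other plus-strand mitochondrial peaks it was 65.9, 75.2 and 69.8, so the stretch was lower by 9.87 percentile points on average, with a mean difference of -9.87 ± 2.11 (SD, n = 3) that was lower in 3 of 3 libraries (p = 0.25, exact two-sided sign-flip permutation test). Without positions 1 to 2660, the other peaks had medians of 47.5, 51.2 and 46.2. The stretch was then higher by 12.2 ± 4.1 percentile points, in 3 of 3 libraries, a description since that span was bounded by the peaks. The peaks of positions 1 to 2660 themselves had medians of 85.2, 88.0 and 88.8. Among 1-bin peaks alone, ranked among the 1-bin peaks of their list, the stretch was higher than the other plus-strand mitochondrial peaks by 2.31 ± 8.25 percentile points, within the spread between libraries.

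**Figure D5:**
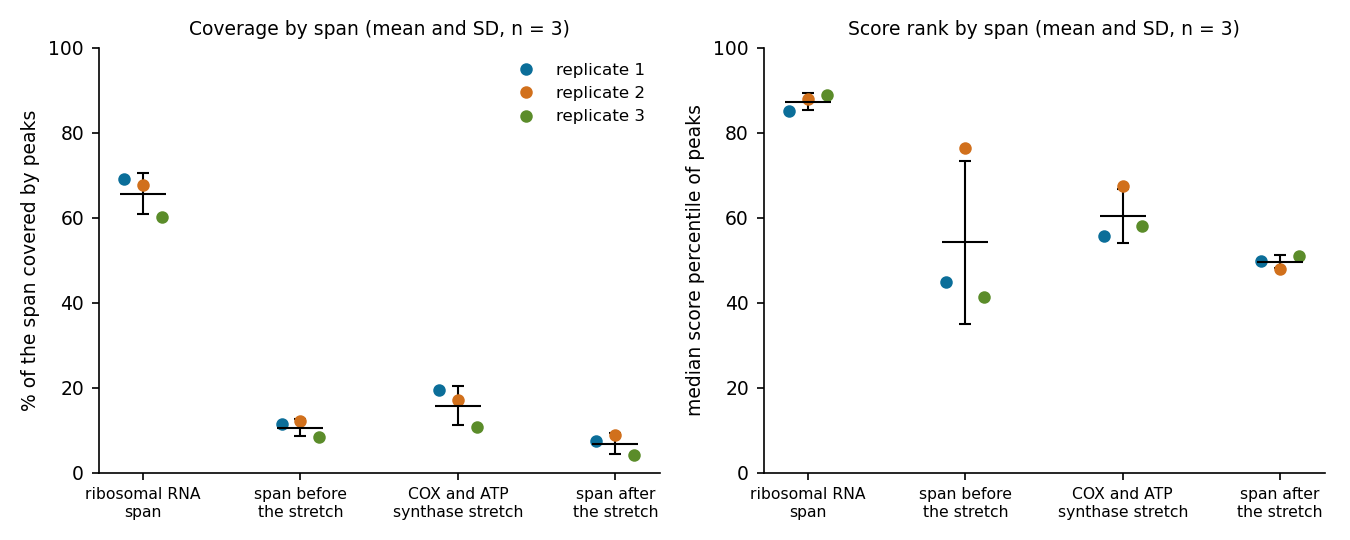
Percentage of each plus-strand mitochondrial span covered by peaks (left) and median percentile of its peaks' scores within their list (right), with a point per library and the mean and SD of the 3 libraries. Coverage of the stretch averages 15.8%, against 65.7% for the ribosomal RNA span, 10.6% for the span before it and 6.85% for the span after it.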

How the data were processed

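Per the submitters' processing notes, reads were aligned with STAR and the build is rn6, with no version named. Per the file names, the authors called peaks with Piranha in 20-nt bins, separately for each library. The deposited lists give a whole-number score per peak, with no stated unit. Not given in the sources used here are the caller's version and threshold, the handling of PCR copies and any role of the IgG samples in calling. A further deposited column is 0 throughout. In all, 1 entry whose end lies before its start was left out.

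Same-strand peaks of the 3 SYNCRIP lists that overlapped by 1 bp or more were merged into regions, and peaks that only touch were kept separate. Differences in partner share and score rank were tested with an exact two-sided sign-flip permutation test over libraries. Computation used Python 3.11.15, pandas 2.3.3 and SciPy 1.17.1. Overlap was tested on simulated data of 300 well separated regions, with 0 mismatches to a direct count. Merging of the same data gave back the planted number of regions. Touching or closely spaced peaks were not simulated.

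Named regions are the 10 core regions with the highest mean percentile, the 3 widest core regions, the 5 longest shared gaps, the highest single-library region per library, the peaks nearest each bound and all minus-strand peaks. The core bins at 5981 and 6361 and the 2-library regions at 5881, 6021 and 8141 fall outside this rule and were added after their values were seen. The members and rules were chosen with earlier results of these data known. The planned analyses by gene and by base composition were not run, for lack of an rn6 annotation and sequence.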

Additional observations from a re-analysis of the deposited data

How the results depend on the processing

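Of 72 alternative settings over 13 results, 52 kept the sign of a difference or stayed within a limit set for the result. Of the 72, 57 were planned and 15 were chosen after seeing the data. The limit was a factor of 1.5 for region counts and for the longest shared gap, which grew from 320 to 480 nt without replicate 1. Some of the 52 could not have changed. No peak crossed a bound, so counting overlapping peaks gave the same values. With 3 libraries, leaving out 1 cannot move mean peak number or coverage by 1 SD. Nor can it turn a coverage or score-rank difference whose sign all 3 share. With peaks under 1.5 times the lowest score removed, which shortens each list by construction, the analysis gave 14.0 peaks and 9.92% coverage per library (25.0 and 15.8% as reported), 12 replicated regions (25) and 4 core regions (13). It also turned the difference in partner share to -13.9 percentage points against other plus-strand mitochondrial peaks and to -7.43 against nuclear peaks; the cause was not tested. Counting bins gave 32.3 per library. Replicated regions numbered 15 with a distance of up to 20 nt, which joins neighbouring regions, 13 with all 3 libraries required, and 15 to 21 with 1 replicate left out, 15 without replicate 1 and 15 without replicate 2. Identical ends gave 8 core regions. The difference in partner share from other plus-strand mitochondrial peaks (0.948) was -0.279 with a distance of up to 20 nt, -3.96 without replicate 1, -15.0 without replicate 2 and 2.77 without replicate 3. The difference in score percentile (-9.87) was 7.78 with the score divided by the number of bins, 2.31 among peaks of 1 bin and 12.2 without the ribosomal RNA span. Mean rho over core regions (0.42) was 0.21 with scores per bin and 0.26 without the highest region. The signs of all 3 differences in coverage between spans held in every setting run. Those signs were the same in all 3 libraries, so the settings that left out 1 replicate could not turn them. No paired analysis was possible because IgG values, the only ones that share replicate numbers with SYNCRIP, were not analysed here; the permutation tests pair values of the same SYNCRIP library. With 3 lists of unknown depth, a region missing from 1 list may lie below its threshold.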
